A study of Mus musculus with 15 samples.

Results

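The Notch2 window is chr3:97700000-98050000 (mm9), 350 kb that hold the Notch2 gene and its flanks by the rule behind it. It was chosen on the deposited peaks themselves, because it holds 1 of the earliest regions of the primary Sp7 lists. All peaks with their midpoint inside it were taken, and peaks that shared at least 1 bp were merged into a site. This gave 73 of the 165108 peaks in the 12 lists and 25 of the 61108 merged sites of the genome. Counts and list positions of the window are therefore a description, and none of them was tested.

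The lists come from ChIP-seq with the FLAG M2 antibody in mouse osteoblasts, and 12 of the 15 samples have one; the other 3 are inputs. Primary cells were taken from the calvaria of C57BL/6 pups at postnatal day 1, with 2 libraries of the genotype Sp7-BioFL/BioFL, in which Sp7 carries the tag on both alleles, and 1 wild-type library pulled down in the same way. MC3T3-E1 is a calvarial pre-osteoblast line, used here at passages 5 to 10. All its libraries shared 1 week in a bone-inducing medium that held 10 ng/ml BMP2, 10 mM beta-glycerophosphate and 50 ug/ml ascorbic acid phosphate. They carried a mutant called Sp7mut, Sp7, Dlx5 or Sp1, with 2 libraries each, or GFP, with 1 library. The labels say neither which mutation Sp7mut holds nor how the proteins were introduced or at what level, and the cell line libraries are FLAG-tagged proteins in a line, not the endogenous factors. Separate cultures or litters are not named for the replicates, whose spread may then be technical. Tagged lists held 2666 to 39749 peaks, against 183 in the wild-type and 269 in the GFP control. A list gives positions only, so read depth and peak height are unknown.

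Notch2 is a receptor that spans the cell membrane and is switched on by Jagged and Delta-like ligands on neighbouring cells. Ligand binding leads to cleavage by an ADAM protease and by gamma-secretase, and the freed intracellular domain enters the nucleus, where it joins Rbpj and Mastermind-like proteins to activate targets such as the Hes and Hey genes. In bone, Notch2 signalling acts in cells of the osteoblast lineage and in osteoclast precursors, and truncating mutations of human NOTCH2 cause Hajdu-Cheney syndrome, which includes bone loss. Sp7 is a zinc finger factor needed to form osteoblasts, Dlx5 a homeodomain factor of the skeleton that binds AT-rich motifs, and Sp1 a zinc finger factor of most cell types that recognises GC boxes. The nearest protein-coding genes in the RefSeq table of GRCm38.p6 are Gm5544 and then Sec22b, a SNARE protein of vesicle traffic, on one side, and Adam30, a member of the ADAM family, and then Reg4, a secreted lectin-like protein, on the other. No gene coordinates of mm9 were used here, so no site is assigned to the promoter, an exon or an intron, and sites are placed by their distance from the leading primary Sp7 site.

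The promoter of Notch2 is shown because the window holds sites of Sp1, whose GC box can be read from it. The 250 bases before the gene's start, on the plus strand of chromosome 3, come from RefSeq (GRCm38.p6), and capitals mark the GC box GGGCGG on either strand.
Notch2 promoter: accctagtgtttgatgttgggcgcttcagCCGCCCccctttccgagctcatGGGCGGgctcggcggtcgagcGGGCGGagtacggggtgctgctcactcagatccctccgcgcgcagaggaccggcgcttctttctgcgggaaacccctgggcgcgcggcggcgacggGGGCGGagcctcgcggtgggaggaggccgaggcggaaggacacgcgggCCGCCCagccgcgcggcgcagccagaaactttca
It holds 5 GC boxes, and 32.7% of the 32851 promoter stretches of the same length in the table hold at least 1. That share does not say how common 5 boxes are. The GC content of the Notch2 promoter is 72.0%, against a median of 52.4% over those stretches, and none of the motif shares given here is matched for GC content. The homeodomain motif TAATTA, its core TAATT, which TAATTA contains, and the Runx motif TGTGGT, each searched on both strands, were not found in these 250 bases; 4.84%, 25.0% and 14.0% of the stretches hold them. Whether a peak covers this stretch was not determined, because the builds differ.

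Peaks of all 5 tagged groups stood in the window, and none of either control. Sp7 in primary osteoblasts had 3 peaks in each replicate. In MC3T3-E1 cells, Sp7mut had 8 and 6 peaks in replicates 1 and 2, Sp7 had 9 and 4, Dlx5 had 14 and 17, and Sp1 had 3 and 6. The wild-type and GFP controls had 0 of 183 and 0 of 269 peaks there. The 95% Clopper-Pearson intervals of these shares reach up to 2.00% and 1.36%, above the highest share of a tagged list, 0.113%. With lists this short, the empty controls say little about background in the window.

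As a share of each list, the window took 0.113% and 0.0934% of the primary Sp7 peaks. The shares were 0.0761% and 0.0405% for Sp7mut, 0.0483% and 0.0660% for Sp7, 0.0463% and 0.0428% for Dlx5, and 0.0284% and 0.0213% for Sp1. The window is 0.0136% of the span between the outermost peaks of the chromosomes. All 10 tagged lists lay above that, and the 95% Clopper-Pearson intervals of both Sp1 lists reached below it. The window was chosen on primary Sp7 peaks, which could raise the primary shares. Why the cell line lists lay above the span share was not tested. These intervals cover counting error only. The intervals of all 10 lists overlapped one another.

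**Figure D1:**
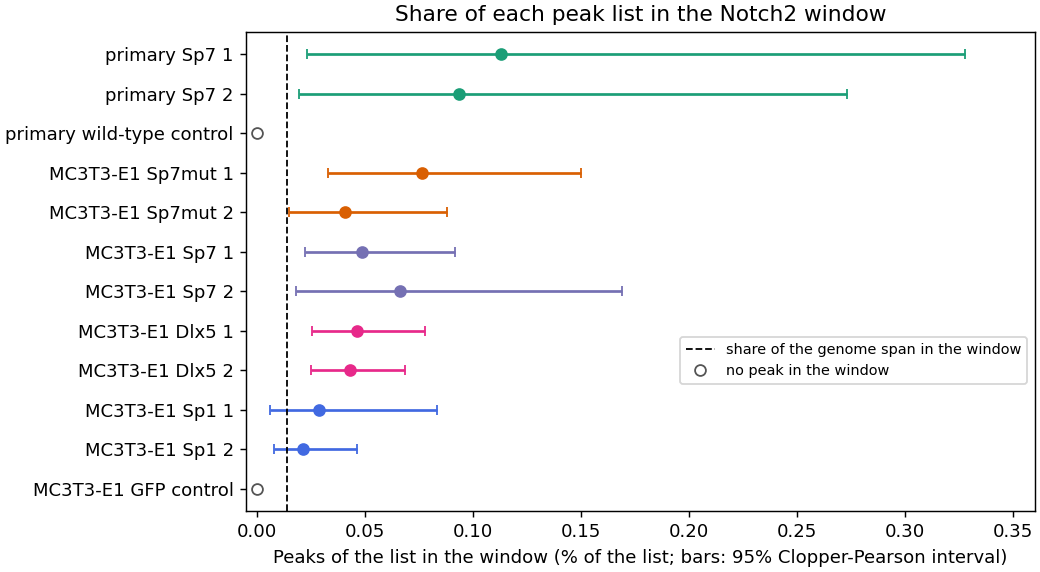
Peaks in the Notch2 window as a percentage of each of the 12 lists (x axis), 1 row per library, with 95% Clopper-Pearson intervals as bars for the 10 tagged lists. Primary Sp7 lists, on which the window was chosen, have the highest shares, 0.113% and 0.0934%, with wide intervals. The dashed line is the window's 0.0136% of the genome span, and open circles without bars mark the 2 controls with 0 peaks.

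Of the 25 sites, 12 held a peak of both replicates of at least 1 tagged group. Primary Sp7 had 3 of the 25, where it had 3.58% of all 61108 merged sites of the genome. The window was chosen because it holds 1 of these 3, so no excess over the genome can be read from this count. Sp7mut had 5 (genome 13.9%), Sp7 had 3 (genome 8.54%), Dlx5 had 9 (genome 39.2%) and Sp1 had 3 (genome 15.1%). With 1 replicate required in place of both, the counts of replicates 1 and 2 were 9 and 3 sites for Sp7, 14 and 17 for Dlx5, and 3 and 6 for Sp1. Dlx5 had the most sites in the window, as in the genome, but also the longest lists. With all tagged lists cut to the first 2666 rows, Dlx5 had 1 site, against 3 each for primary Sp7, Sp7mut and Sp7 and 2 for Sp1. A peak of 1 list alone made up 11 sites (genome 39.5%). None of the 25 sites met a control peak, as against 0.563% of all sites, a share too small to be compared with 25 sites.

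**Figure D2:**
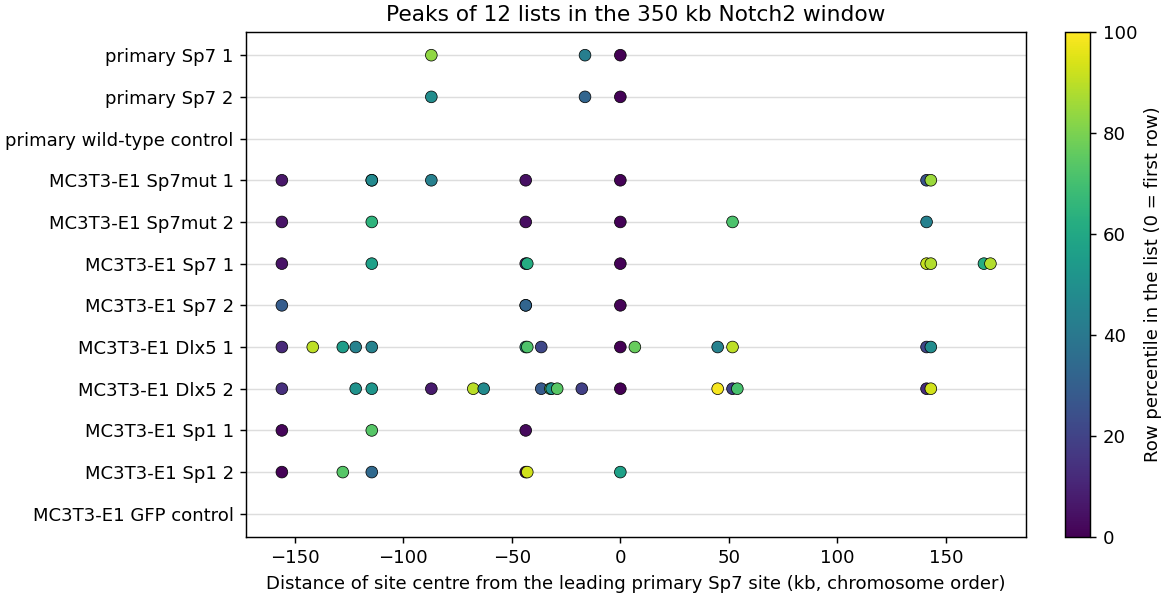
Peaks of the 12 lists (rows) at the 25 sites of the window, by the distance of the site's centre from the leading primary Sp7 site in kb (x axis); colour gives the row percentile, 0 for the first row of a list. The leading site at 0 is dark in 8 lists, and Dlx5 peaks away from it come from early and late rows.

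How often the peaks of a replicate were met by the other replicate differed between lists, in the window as in the whole lists. All 3 primary Sp7 peaks of either replicate had a partner in the other, where 82.0% and 68.1% of the whole lists did. For Sp7mut it was 6 of 8 and 5 of 6 (lists 80.6% and 57.5%), and for Dlx5 9 of 14 and 9 of 17 (lists 80.0% and 60.7%). For Sp7 3 of 9 peaks of the longer list and 4 of 4 of the shorter one were met (lists 27.9% and 85.2%), and for Sp1 3 of 3 and 3 of 6 (lists 88.1% and 32.8%).

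The leading primary Sp7 site, chr3:97860709-97861037, was found in both replicates of primary Sp7, Sp7mut, Sp7 and Dlx5. List position is given as the row percentile, the row number as a percentage of the list's rows, so that a low value is an early row. What the authors ordered the rows by is not stated in the sources used here, so an early row is a place in the list and not a known strength. In primary osteoblasts the site was row 9 of 2666 (0.338%) and row 18 of 3212 (0.560%). In MC3T3-E1 cells it was row 82 of 10519 and 65 of 14830 for Sp7mut (0.780% and 0.438%), row 75 of 18624 and 56 of 6063 for Sp7 (0.403% and 0.924%), and row 89 of 30234 and 71 of 39749 for Dlx5 (0.294% and 0.179%). All 8 values lay in the first 1% of their list, and the site was the earliest of the window in each of these lists. In the primary Sp7 lists this follows from the choice of the window and of the leading site by row order. Only the cell line values were not used in that choice.

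Of the 8 rows before it in primary Sp7 replicate 1, 7 overlapped a control peak, and of the 17 before it in replicate 2, 15 did. Among rows not met by a control it was thus row 2 and row 3. Genome-wide, 806 sites (1.32% of all merged sites) had these 4 groups in both replicates, and 34 of them met a control peak. Ordered by the latest of the 8 row percentiles, the site stood 4th among the 806, those 34 included. That place follows in part from the choice of the window.

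Sp1 was the exception at the leading site. Its replicate 1 had no peak there, and its replicate 2 had one at row 16014 of 28210, a row percentile of 56.8%. Of the 806 sites with the same 4 groups, 65.9% held at least 1 Sp1 peak, so an Sp1 peak in at least 1 replicate was common among them. The Sp1 peak was 329 bp wide and the other 8 were 134 to 192 bp.

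The 9 peaks of the leading site had 107 bp in common, chr3:97860772-97860878. Without Sp1, the midpoints of 2 lists lay 1.00 to 28.0 bp apart over the 28 pairs of lists, with a median of 14.8 bp. Over the genome's sites with exactly 1 peak of each of the 2 lists, the median distances of the same pairs were 20.5 to 33.5 bp. Replicate 1 of Sp7mut lay 1.00 bp and replicate 1 of cell line Sp7 2.00 bp from primary Sp7 replicate 1, and replicate 2 of these groups lay 3.50 and 2.50 bp from primary Sp7 replicate 2. Between the replicates of a group the distances were 22.5 bp for primary Sp7, 27.0 bp for Sp7mut, 27.0 bp for Sp7 and 10.0 bp for Dlx5. The 3 replicate distances of the Sp7 forms thus lay above the 14.8 bp median of the 28 pairs and above these 4 distances between groups. Between unlike replicate numbers of primary Sp7, Sp7mut and Sp7, the distances were 23.5 to 28.0 bp. Over the genome, the same 4 like-numbered pairs had medians of 21.5, 23.5, 23.5 and 23.0 bp. The replicates of primary Sp7, Sp7mut and Sp7 had 22.5, 24.5 and 25.5 bp, and unlike numbers 20.5 to 29.5 bp. These genome medians overlap, so the order at this 1 site was not seen over the genome.

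**Figure D3:**
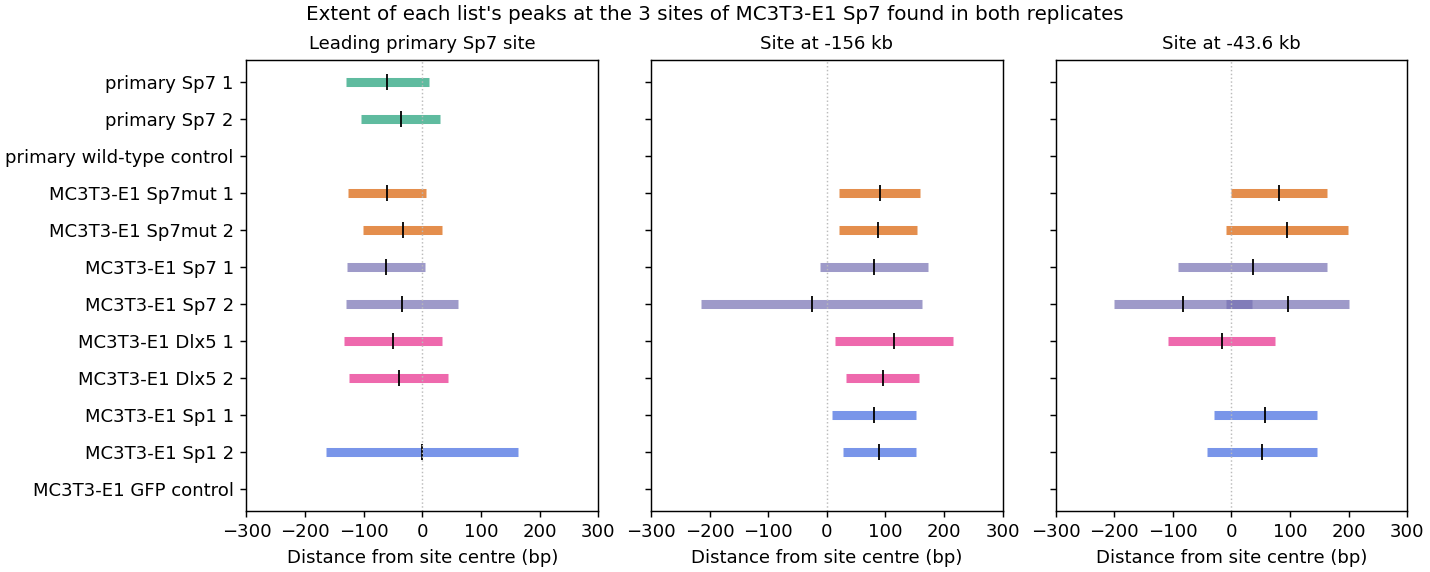
Extent of each peak (bars) and its midpoint (black ticks) in bp from the centre of the site, for the 12 lists (rows) at the 3 sites that cell line Sp7 has in both replicates. At the leading site 8 lists share nearly the same stretch and the Sp1 peak is wider, at 329 bp; the other 2 sites have peaks of both Sp1 replicates and none of primary Sp7.

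The other 2 primary Sp7 sites stood lower in their lists and had fewer partners. The site chr3:97844472-97844739, 16.3 kb before the leading site, was at 42.2% and 32.2% of the primary lists. No cell line list had a peak there, which held for 310 of the 2185 primary Sp7 sites of the genome (14.2%). The nearest cell line peak, chr3:97843082-97843159 of Dlx5 replicate 2, did not overlap it.

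The site chr3:97773727-97773912, 87.1 kb before the leading site, was at 83.5% and 48.7% of the primary lists. It held a peak of Sp7mut replicate 1 at 43.0% and of Dlx5 replicate 2 at 7.11%, row 2826 of 39749. No peak of Dlx5 replicate 1 or of cell line Sp7 was there. So early a row without a partner was uncommon, as 1.98% of the first 2826 rows of Dlx5 replicate 2 had none in replicate 1. The 4 peaks of this site shared 148 bp.

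Counted over both replicates, 1 of the 3 primary Sp7 sites was also a site of Sp7mut, where 50.9% of the genome's primary Sp7 sites were. For Sp7 it was 1 of 3 (genome 40.5%), for Dlx5 1 of 3 (genome 69.9%) and for Sp1 0 of 3 (genome 8.15%). In each of the first 3 cases the 1 site was the leading one. These genome shares include sites met by a control peak, here and below. With 3 sites, no difference from the genome can be read from these counts.

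In contrast to the leading site, 2 sites were headed by Sp1 and had no primary Sp7 peak. The first, chr3:97704773-97705202, lay 156 kb before the leading site. Its Sp1 peaks were row 142 of 10549 (1.35%) and row 144 of 28210 (0.510%), the earliest of both Sp1 lists in the window. Sp7mut followed at 6.07% and 5.33%, Sp7 at 4.78% and 29.0%, and Dlx5 at 11.4% and 13.4%. All 4 cell line groups thus had it in both replicates, as did 2.10% of all merged sites. The 8 peaks shared 120 bp, but the peak of Sp7 replicate 2 was 378 bp wide, and where peaks had to overlap by at least 50% of both, Sp7 had 1 site in common with Dlx5 and 1 with Sp1 in place of 2 each.

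The second, chr3:97817104-97817505, lay 43.6 kb before the leading site, with Sp1 at row 280 (2.65%) and row 284 (1.01%). Sp7mut stood at 4.13% and 3.63%, against 8.47% and 32.2% for Sp7. Dlx5 had a peak in replicate 1 alone, at 55.4%. Sp7 replicate 2 gave a pair of overlapping peaks here, the later at 64.1%, and all 8 peaks of the site shared 36 bp. At this site both Sp7mut values lay below both Sp7 values, while at the first the Sp7mut values lay between those of Sp7. By row number the sites did not differ in this way. The Sp7mut peaks were rows 639 and 790 at the first site, against rows 891 and 1761 for Sp7, and rows 434 and 538 at the second, against rows 1578 and 1954 for Sp7. Row percentiles depend on the length of a list, and Sp7mut and Sp1 were called against 1 input library and Sp7 and Dlx5 against another.

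The remaining Sp1 site, chr3:97746108-97746676, 114 kb before the leading site, came from later rows. Sp1 stood at 73.7% and 33.8%, Sp7mut at 46.9% and 64.8%, with another replicate 1 peak at 60.7%, Dlx5 at 44.0% and 52.1%, and Sp7 at 56.4% in replicate 1 alone. It was 569 bp wide, and its 8 peaks had no base in common, because the Sp1 replicate 1 peak began after the Dlx5 and Sp7 peaks ended. Overlaps at this site are thus chains of peaks, not 1 shared stretch.

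Of the 3 Sp1 sites, 0 were primary Sp7 sites (1.92% of the genome's Sp1 sites were), 3 were Sp7mut sites (genome 39.6%), 2 were Sp7 sites (genome 19.0%) and 2 were Dlx5 sites (genome 34.5%). With 3 sites, no difference from the genome can be read from these counts either. Early Sp1 sites of the genome were met more often than all Sp1 sites. Among the 268 Sp1 sites at least as early as the second of these sites by their later replicate, 11.9% were primary Sp7 sites, 76.1% Sp7mut sites, 47.4% Sp7 sites and 58.2% Dlx5 sites.

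**Figure D4:**
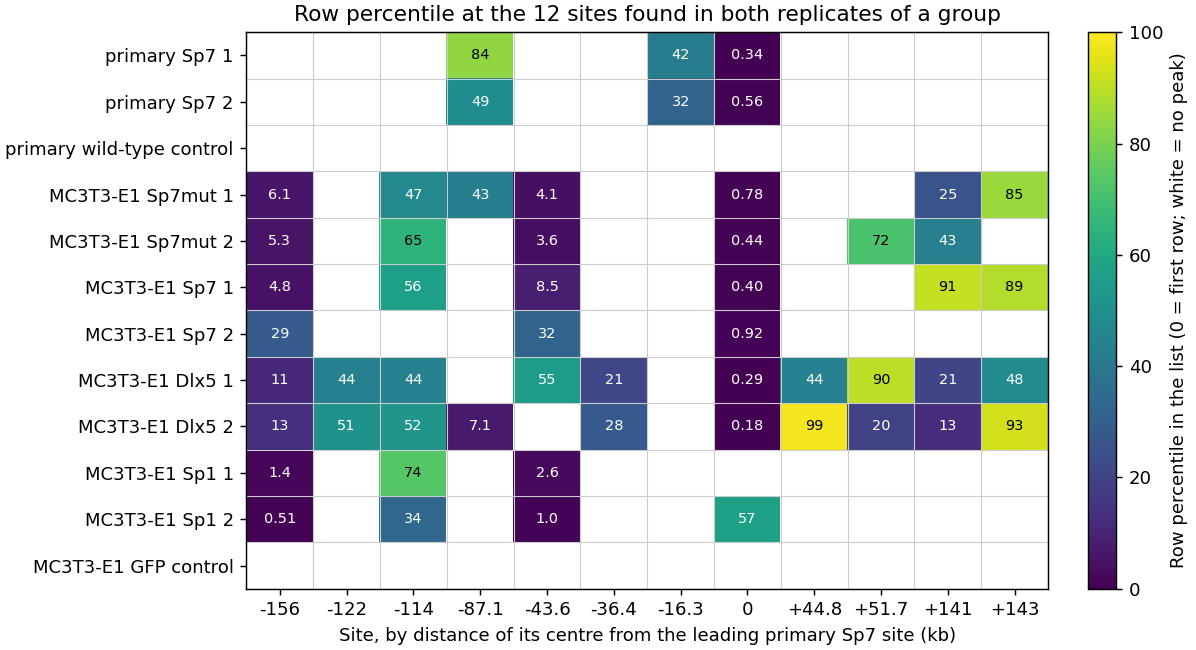
Row percentile (colour and number; low means early) in each of the 12 lists (rows) at the 12 sites found in both replicates of a tagged group, ordered by distance from the leading primary Sp7 site in kb (x axis); white means no peak, and the earlier of a pair of peaks is shown. The site at 0 is below 1% in 8 lists, and the sites at -156 and -43.6 kb are lowest in the Sp1 lists.

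Counted over both replicates, the mutant had all 3 cell line Sp7 sites of the window and 2 more. Sp7mut was found in both replicates at all 3 sites of Sp7, where 71.7% of the genome's Sp7 sites were Sp7mut sites. Dlx5 and Sp1 each met 2 of the 3 Sp7 sites (genome 87.1% and 33.6%). Seen from the mutant, 3 of its 5 sites were Sp7 sites (genome 44.1%), 4 were Dlx5 sites (genome 71.3%) and 3 were Sp1 sites (genome 43.2%). With 3 and 5 sites, no difference from the genome can be read from these counts. With replicate 1 of each group alone, Sp7 had 9 sites and Sp7mut had 7, the reverse order. Of these 9 Sp7 sites, 6 were Sp7mut and 7 Dlx5 sites. Replicate 2 alone gave 3 Sp7 and 6 Sp7mut sites. At the 2 sites that Sp7mut alone of these 2 forms had in both replicates, Sp7 replicate 1 had a peak and replicate 2, the shorter list with 6063 rows, had none.

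Of these 2, the one not yet described, chr3:98001783-98002015, lay 141 kb after the leading site. Sp7mut stood at 25.4% and 43.4%, against 91.4% for Sp7 in replicate 1. Dlx5 stood at 20.8% and 12.7%, and Sp1 and primary Sp7 had no peak. Both Sp7mut values and both Dlx5 values were thus earlier in their lists than the Sp7 value, and the difference was not tested.

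Dlx5 had 5 sites in both replicates that no other factor had in both. The sites chr3:97738891-97739102, chr3:97824361-97824529 and chr3:97905570-97905833 held Dlx5 peaks alone. They stood at 44.0% and 51.0%, at 21.1% and 28.5%, and at 44.2% and 98.6% of the Dlx5 lists. The site chr3:97912391-97912696 had Dlx5 at 90.0% and 19.8% and Sp7mut replicate 2 at 71.8%. The site chr3:98003737-98004004 had Dlx5 at 48.4% and 93.1%, Sp7mut replicate 1 at 84.8% and Sp7 replicate 1 at 88.6%. Positions in the replicates differed widely at the last 3 of these sites.

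Of the 9 Dlx5 sites, 1 was a primary Sp7 site (genome 6.37%), 4 were Sp7mut sites (genome 25.2%), 2 were Sp7 sites (genome 19.0%) and 2 were Sp1 sites (genome 13.3%). The primary Sp7 site is the leading one, for which the window was chosen, and it is also among the Sp7mut and Sp7 sites. With 9 sites, no difference from the genome can be read from these counts. Replicate 1 alone gave 7 sites with both Dlx5 and Sp7, and replicate 2 alone gave 2. The leading site and the site 156 kb before it were the 2 that all of Sp7mut, Sp7 and Dlx5 had in both replicates.

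The remaining 13 sites were not found in both replicates of any group. They held 16 peaks, 7 sites with Dlx5 replicate 2 alone, 2 with Dlx5 replicate 1 alone, 2 with Sp7 replicate 1 alone, 1 with Dlx5 replicate 1 and Sp1 replicate 2, and 1 with Sp7 replicate 1, Dlx5 replicate 1 and Sp1 replicate 2. No primary Sp7 or Sp7mut peak was among them. Their row percentiles ran from 18.8% to 92.7% with a median of 72.7%, against 0.179% to 98.6% with a median of 32.2% for the 57 peaks of the 12 sites above. The earliest, chr3:97843082-97843159, was a Dlx5 replicate 2 peak at row 7469, and 5.98% of the rows up to it had no partner in replicate 1. The site with 3 lists, chr3:97817728-97818300, singled out after its values were seen, lay next to the second Sp1 site.

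Late rows more often followed one another along a chromosome than early ones. In all 10 tagged lists the share of rows followed by a row of the same chromosome was higher in the last 20% of the list, at 7.16% to 25.6%, than in the first 20%, at 5.61% to 9.78%. In Sp7 replicate 1 the shares were 25.6% and 7.49%. In the window, 5 pairs of peaks stood within 10 rows of each other in a list of 18624 or 30234 rows, such as rows 16503 and 16505 of Sp7 replicate 1. All 5 pairs lay at 44.0% of their list or later. Small differences between late row percentiles were not read.

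The edges of the window fell between sites. Just inside were the first Sp1 site, 4.99 kb from the lower edge, and a Sp7 replicate 1 peak at row 16505, 18.7 kb from the upper edge. Just outside were a Dlx5 replicate 2 peak at row 26547, 10.8 kb below the lower edge, and a Sp7 replicate 1 peak at row 18112, 13.3 kb above the upper edge.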

How the data were processed

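The data are 12 deposited peak lists with 3 columns, chromosome, start and end; the authors' positions in bp are the only values. Positions are on mm9, as the submitters' processing notes name it; the sources used here give no aligner, peak caller or threshold. Per the labels, peaks were called per library, with 1 input for the primary lists, 1 for Sp7 and Dlx5 and 1 for Sp1 and Sp7mut; that of GFP is not stated. Groups came from the sample titles.

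Peaks of all lists were merged into sites by an overlap of at least 1 bp, chained, over the genome, and sites of the window were read against all sites. A site counted for a group when it held a peak of both replicates. Named sites are all 12 sites of the window found in both replicates of a tagged group, plus edge sites and 3 unreplicated sites chosen after their values were seen. Starts are given 1-based. No test was made: the window was chosen on these lists, and members, window and alternatives were chosen with earlier results of these data known. The merging code was tested on simulated lists and returned 2000 of 2000 planted sites. These were planted far apart with peaks close around their centre, so chains of peaks and close neighbouring sites were not tested. Promoter motifs were counted as exact matches. Planned sequence and Notch pathway analyses needing mm9 sequence or annotation were not run. Python 3.11.15, numpy 2.4.6, scipy 1.17.1 and matplotlib 3.10.9 were used.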

Additional observations from a re-analysis of the deposited data

How the results depend on the processing

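No paired analysis was possible because no result comes from a test and the replicate numbers only name the libraries. Leaving out sites met by a FLAG control could change none of the 19 counts, because no site of the window met a control peak. Taking any overlap with the window in place of midpoints could change none of the 12 list shares, because no peak crossed an edge. Where peaks had to overlap by at least 50% of both, Sp7 and Sp1 had 2 sites each in place of 3, and 2 Sp7 sites met Sp7mut in place of 3. In that setting 1 Sp7 site met Dlx5 and 1 met Sp1, and 1 Dlx5 site met Sp7 and 1 met Sp1, in place of 2 each. Joining midpoints no more than 100 bp apart gave 2 Sp7 sites, 2 with Sp7mut, 1 with Dlx5 and 1 with Sp1, and 1 Dlx5 site with Sp7.

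The earlier 50% of the rows of each list left 14 sites, 4 of them Dlx5 sites, as many as the 4 of Sp7mut, and 1 a site of both Dlx5 and Sp1. With tagged lists cut to the 2666 rows of the shortest, 5 sites were left; Sp7mut had 3, Dlx5 had 1, the fewest of the 5 tagged groups, which was also the 1 Sp7 site with Dlx5 and the 1 Dlx5 site with Sp7mut and with Sp7, and Dlx5 and Sp1 shared 0. The wider 50% of peaks removed the leading site from most lists. Primary Sp7 then had 0 sites, Sp7mut 1, Sp7 2, Dlx5 1 and Sp1 1, so Dlx5 led alone under none of these 3 settings. Of primary Sp7 sites, 0 met Sp7mut, 0 Sp7 and 0 Dlx5. Of Sp7 sites, 1 met Sp7mut, 0 met Dlx5 and 1 met Sp1. Of Dlx5 sites, 0 met primary Sp7, 0 Sp7mut, 0 Sp7 and 0 Sp1.

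Without replicate 1 or 2, a site needed the other replicate alone. The number of sites then ranged from 3 to 9 for Sp7, from 14 to 17 for Dlx5 and from 3 to 6 for Sp1. Primary Sp7 sites met by Sp7mut ranged from 1 to 2, by Dlx5 from 1 to 2 and by Sp1 from 0 to 1. Sp7 sites met by Sp7mut ranged from 3 to 6 and by Dlx5 from 2 to 7. Dlx5 sites met by primary Sp7 ranged from 1 to 2 and by Sp7 from 2 to 7.

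By width in place of row, counted from the widest peak, the leading site stood at 84.2% and 78.1% of the primary Sp7 lists, 59.8% and 68.7% of Sp7mut, 69.1% and 35.6% of Sp7, 55.6% and 51.8% of Dlx5 and 8.72% of Sp1 replicate 2. Its early place is thus one of row order, not width. Among rows not met by a control its primary Sp7 percentiles were 0.0779% and 0.0969%.

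In the earlier 50% of rows, the window took 0.150% and 0.187% of the primary Sp7 lists, 0.114% of Sp7mut replicate 1, 0.0322% and 0.0990% of Sp7, 0.0529% and 0.0403% of Dlx5 and 0.0379% of Sp1 replicate 1. Widened by 100 kb on each side, it took 0.0644% and 0.0825% of Sp7, 0.0529% and 0.0553% of Dlx5 and 0.0390% of Sp1 replicate 2. A wider window can only keep or raise a share, because the list length stays the same, so a higher share is not a higher density of peaks. The primary Sp7 shares stayed at 0.113% and 0.0934% in the wider window. Beyond that, the causes of these shifts were not tested. The lists hold no reads or scores, so depth and peak strength set limits that are unknown here.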

Other observations

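Sites were unevenly spaced along the window. Neighbouring site centres lay 0.59 to 87.15 kb apart, with a median of 6.77 kb. The longest stretch without a peak of any list ran between chr3:97914668-97914828 and chr3:98001783-98002015. Of the 12 sites found in both replicates of a group, 8 lay at or before the leading site in chromosome order and 4 after it. Sp1 had no peak after the leading site, and neither did primary Sp7.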
